A study of Mus musculus with 27 samples.

Results

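In tumours that had become resistant to a Smoothened antagonist, 20 probe sets of 45037 met a rule for high signal. The rule also limited the mean change under the same drug in sensitive tumours, to 0.7 log2 units at 16 h and 48 h. A mean change within that limit does not show that the drug left a probe set alone. A probe set is a group of short probes on an array that together read 1 transcript or several. The rule used the mean over tumours of log2(signal + 4). Members were chosen by these measured values: it kept a probe set where the mean signal of the 5 resistant tumours was 100 or more and where their log2 mean lay 1 or more above 8 vehicle tumours. The log2 mean also had to lie 1 or more above 5 sensitive tumours under drug for 16 h or 48 h, and drug and vehicle had to lie within 0.7 of each other at 16 h and at 48 h. Because these values chose the probe sets, the height of the resistant tumours over vehicle and over drug at 16 h and 48 h is described here with no test.

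All groups were Ptch+/-p53-/- mouse medulloblastoma grown under the flank skin of nude mice, with 1 tumour on each of 21 one-colour Affymetrix arrays. Of the vehicle tumours 3 were harvested at 4 h, 3 at 16 h and 2 at 48 h. Sensitive tumours received NVP-LDE225, the Smoothened antagonist, at 20 mg/kg/day once a day and were harvested at those times in the same numbers. Resistant tumours, harvested on day 26, had received the drug 2 times a day at 20 mg/kg/day (the lower dose, n = 2) or at 160 mg/kg/day (the higher dose, n = 3). No vehicle RNA array of that day was used here, so resistance, tumour age, length of dosing and schedule cannot be told apart. Tumours are named by their mouse number within the dose. The tissue was bulk tumour, which can hold host cells, and nude mice lack a normal thymus. In such tissue more cells of a type and more RNA per cell cannot be told apart.

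Medulloblastoma is a cerebellar tumour, and one of its forms is driven by the Hedgehog pathway. Patched holds Smoothened off until Hedgehog ligand binds it, so loss of Patched leaves Smoothened and the Gli transcription factors active. Smoothened antagonists shut this signal off, and tumours under treatment can regrow. The title of the series names resistance to these antagonists and the PI3K pathway as its subject. The tables used here do not pair the probe sets with genes, so the 20 are named by their array identifiers, and neither their roles in these pathways nor the markers of tumour and host cells were analysed here.

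The signals are scaled by array. Array means ran from 221.4 to 256.4, no arrays were identical, and no correlation between arrays exceeded 0.9794. Actin control probe sets read both ends of the transcript, and their 3'/5' signal ratio rises when RNA is shortened. It ran from 1.25 to 1.40 on the 9 arrays of resistant tumours and of 48 h, and from 1.53 to 1.91 on the other 12, of 4 h and 16 h tumours. The same ratio for GAPDH overlapped between those arrays, at 0.807 to 0.911 and 0.817 to 1.02. The actin ratio thus moves with resistance wherever the comparison uses 4 h and 16 h tumours, and its part in the results was not tested.

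The 20 probe sets stood above vehicle by a median of 1.38 on the log2 scale, from 1.01 to 3.31, as the rule required of each. Their mean resistant signal ran from 104 to 4397, with a median of 223. The word "only" in the working description, high only in resistant tumours, held for a minority: in 6 of the 20 all 5 resistant tumours read above all 16 other tumours, where 0.262% of the 32842 tested probe sets did so. The rule used most of these arrays, so nothing is read from that share. In another 6 probe sets 4 of the 5 resistant tumours read above all others, in 6 probe sets 3 did, and in 2 probe sets 2 did. In 5 probe sets at least 1 resistant tumour lay below the vehicle mean. Counted against a height of 1 log2 unit over the vehicle mean, 3 probe sets had all 5 resistant tumours that high, 2 had 4, 9 had 3 and 6 had 2.

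**Figure D1:**
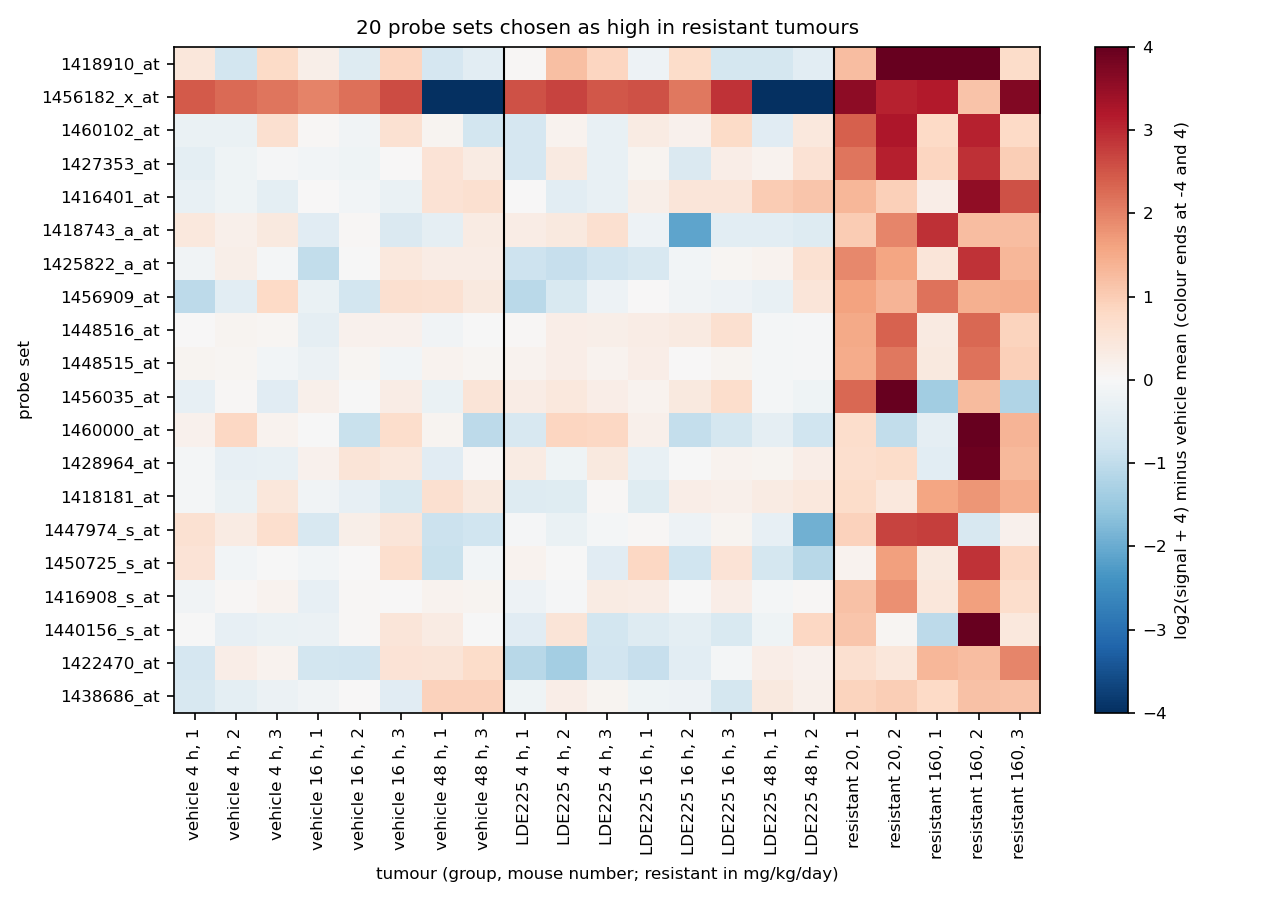
Colour shows each tumour's log2(signal + 4) minus the mean of the 8 vehicle tumours, for the 20 probe sets (rows) in 21 tumours (columns, by group). Resistant columns are the highest in most rows, but few rows are high in all 5, and the row of 1456182_x_at is low in the 48 h columns.

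The fully separated probe sets carry the selected pattern most directly. For 1456909_at the resistant tumours read 247 and 207 at the lower dose and 367, 218 and 223 at the higher dose. The 8 vehicle tumours read from 36.3 to 141 with a median of 85.1, and the 8 sensitive tumours under drug from 35.0 to 111 with a median of 67.9. Its lowest resistant tumour was 1.47 times its highest other tumour, the widest such gap of the 20, and the resistant tumours spread over 0.813 log2 units. Its resistant minus vehicle difference was 1.60.

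For 1418743_a_at the resistant tumours read 69.2 and 139 at the lower dose and 274, 82.3 and 82.3 at the higher dose. Vehicle tumours read from 20.4 to 44.8 (median 35.9) and sensitive tumours under drug from 4.4 to 53 (median 25.6), so the groups did not overlap and higher-dose mouse 1 stood highest. The difference from vehicle was 1.67.

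The other 4 separated probe sets shared 1 profile within the resistant tumours, with mouse 2 of each dose high. For 1460102_at the resistant tumours read 446 and 815 at the lower dose and 145, 726 and 146 at the higher dose, against 47.6 to 132 in vehicle and 50.5 to 144 in sensitive tumours under drug. Its groups did not overlap, but 2 resistant tumours lay just above the highest sensitive tumour, 1 of 16 h. For 1427353_at the resistant tumours read 215, 416, 84.7, 367 and 93.3 in the same order, against 33.6 to 67.2 in vehicle and 26.6 to 69.9 under drug. Its lowest resistant tumour stood 1.21 times above the highest other tumour. Their differences from vehicle were 2.05 and 2.00.

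For 1448515_at the resistant tumours read 2573, 3998, 1216, 4189 and 1793 in that order, vehicle tumours 775 to 1020 and sensitive tumours under drug 877 to 1120. For 1416908_s_at they read 3122, 4960, 1903, 4309 and 2249, vehicle tumours 1096 to 1540 and sensitive tumours under drug 1220 to 1738. The groups of both probe sets did not touch, although higher-dose mouse 1 came within 1.09 and 1.10 times of the highest other tumour. Their differences from vehicle were 1.43 and 1.15.

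**Figure D2:**
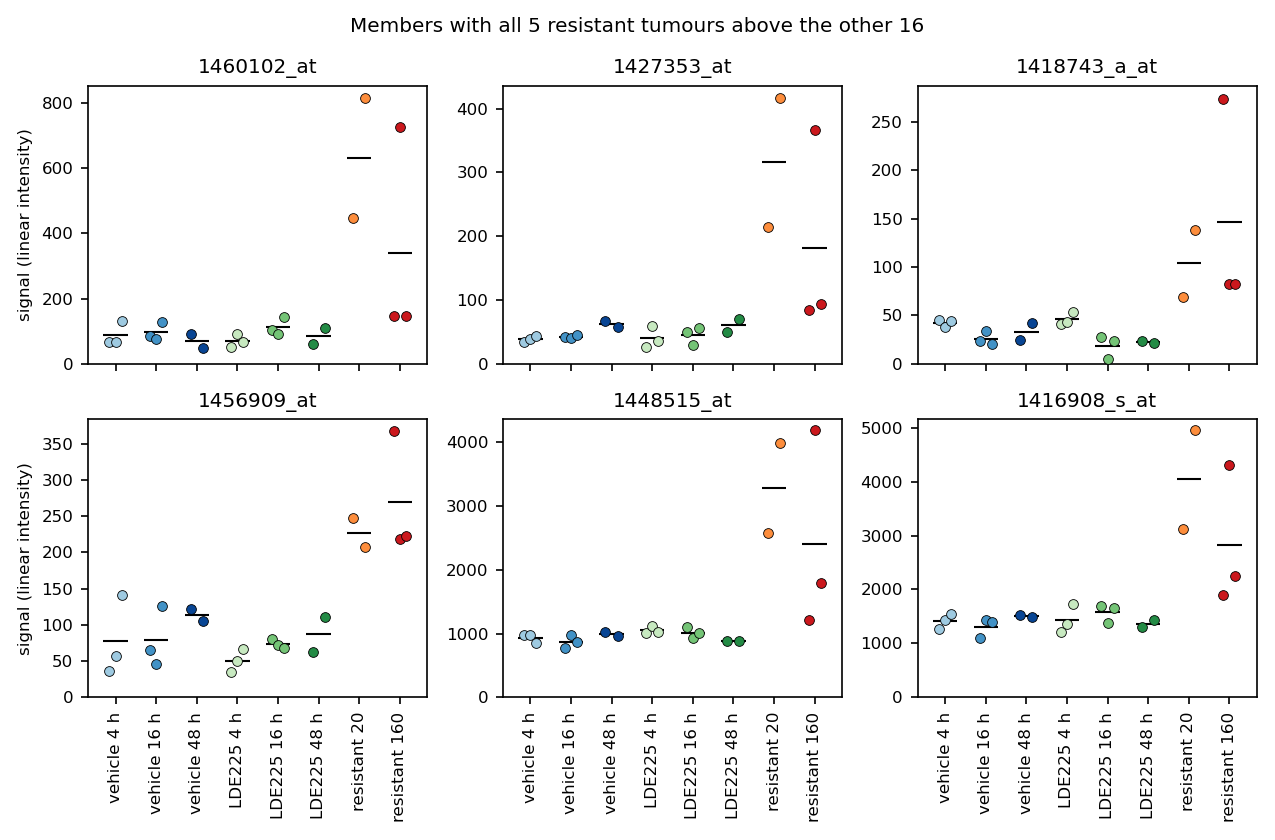
Points are the signals of single tumours (linear axis) by group for the 6 probe sets whose 5 resistant tumours all read above the other 16, and bars are group means. In 1456909_at the lowest resistant tumour is 1.47 times the highest other, while in 1460102_at 145 and 146 lie beside 144.

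The probe set 1448516_at followed the same profile without full separation. Its resistant tumours read 1674 and 2998 at the lower dose and 742, 2853 and 1087 at the higher dose. Vehicle tumours read 448 to 651 and sensitive tumours 553 to 907, so higher-dose mouse 1 lay within the sensitive range and the other 4 lay above it. The order lower-dose mouse 2, higher-dose mouse 2, lower-dose mouse 1, higher-dose mouse 3 and higher-dose mouse 1, from high to low, was shared by 1460102_at, 1427353_at, 1448516_at and 1416908_s_at. The same order with its first 2 tumours exchanged held for 1448515_at. Over all 20 there were 16 different orders, and 7 probe sets had those same 3 tumours on top. Whether these probe sets read the same transcript is not known from the tables used here, so they are not counted as independent.

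Within the resistant tumours the 20 varied more than within vehicle tumours. Their SD over the 5 resistant tumours had a median of 1.04 log2 units, against 0.443 over the 8 vehicle tumours, and it was the larger of both in 16 of 20 (80%). Over the 14394 probe sets with a resistant mean signal of 100 or more, the medians were 0.268 and 0.227, and the resistant SD was the larger in 61.5%. The range from the lowest to the highest resistant tumour ran from 0.371 log2 units for 1438686_at to 7.13 for 1456035_at, with a median of 2.42. The rule used the mean of these 5 tumours, so their spread is not independent of it.

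Single tumours differed in how much of the pattern they held. Higher-dose mouse 2 read 1 or more above the vehicle mean in 19 of the 20, with a median of 2.23. Both lower-dose tumours, mouse 1 and mouse 2, did so in 13 each, with medians of 1.20 and 1.73. Higher-dose mouse 3 and higher-dose mouse 1 did so in 10 and 7, with medians of 1.07 and 0.64. Each of the 16 other tumours did so in 0 to 2 probe sets, with medians from -0.148 to 0.422. Higher-dose mouse 2 was the highest resistant tumour in 9 probe sets, and mouse 1 at the same dose the lowest in 11. The rule chose the 20 by the mean of the resistant tumours over this vehicle mean, so these counts are a description.

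In 4 probe sets the resistant mean was carried by 1 tumour. For 1460000_at higher-dose mouse 2 read 491 and the other resistant tumours 9.8, 0.3, 2.7 and 18.1, while the 16 other tumours read 0.1 to 11.4. For 1440156_s_at that tumour read 804 and the others 47.6, 21.2, 7.7 and 28.1, against 10.6 to 39.1 in the 16. For 1428964_at it read 384 and the others 36.2, 38.2, 14.9 and 58.4, against 14.4 to 32.3. In all 3 of these, 1 or more of the other resistant tumours lay within the range of the 16, and the rest came far closer to it than mouse 2 did.

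For 1456035_at the high tumour was lower-dose mouse 2, at 610. Mouse 1 of that dose read 52.9, the 3 tumours at the higher dose read 0.4, 23.8 and 1.0, and the 16 other tumours 4.5 to 14.7. Thus 3 resistant tumours lay above all others and 2 lay below all others. In 1418910_at 3 tumours were high: 172 for lower-dose mouse 2, and 215 and 208 for higher-dose mice 1 and 2. Its other resistant tumours, at 12.5 and 7.7, stood beside a range of 0.2 to 11.9 in the 16. Signals that low make the size of its difference from vehicle depend on the offset: 3.31 log2 units with 4, 4.16 with 1 and 2.25 with 16, 1 rank lower among the 20 in the last.

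**Figure D3:**
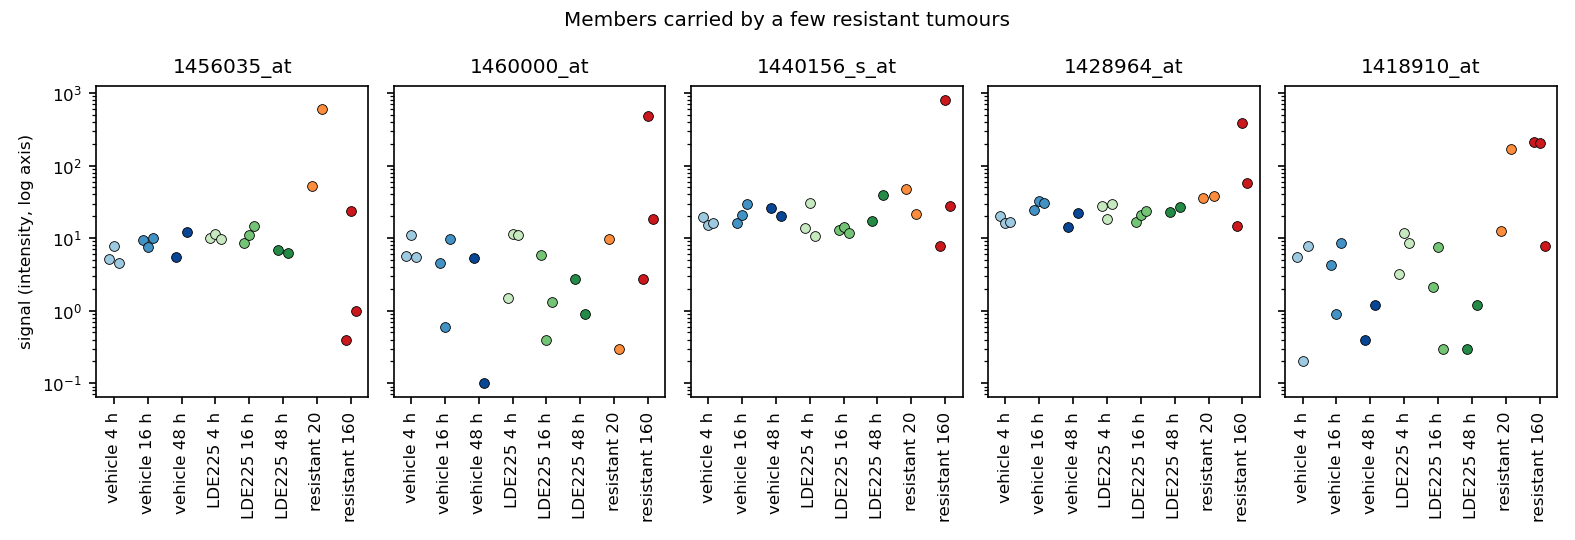
Points are the signals of single tumours by group, on a log axis, for the 5 probe sets with the widest range over resistant tumours. In 1460000_at 1 resistant tumour reads 491 and the other 4 lie between 0.3 and 18.1.

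Another 6 probe sets lay between these patterns. For 1416401_at the resistant tumours read 152 and 116 at the lower dose and 70.3, 724 and 354 at the higher dose, against 42.6 to 92.0 in vehicle and 42.0 to 130 under drug. For 1425822_a_at they read 272, 214, 98.8, 530 and 181 in the same order, against 32.9 to 92.7 in vehicle and 34.2 to 107 under drug. In both, higher-dose mouse 2 was highest and mouse 1 at that dose fell into the range of sensitive tumours, as did lower-dose mouse 2 in 1416401_at. For 1450725_s_at they read 37.4, 112, 44.4, 274 and 61.6, against 16.1 to 55.4 in vehicle and 13.2 to 61.5 under drug, and only 112 and 274 stood clear of that range by a margin.

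For 1418181_at the resistant tumours read 144 and 116 at the lower dose and 259, 299 and 237 at the higher dose, against 53.9 to 134 in vehicle and 58.0 to 115 under drug. The tumours at the higher dose were all above the 2 at the lower dose. For 1422470_at they read 1212, 1064, 1963, 1862 and 3038, against 456 to 1293 in vehicle and 300 to 939 under drug. Here too the 3 tumours at the higher dose led, and the 2 at the lower dose lay within the vehicle range. For 1447974_s_at they read 56.5, 208, 216, 16.8 and 32.2, against 13.6 to 47.1 in vehicle and 4.6 to 30.9 under drug, so 3 were above all others and 2 were inside the vehicle range.

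The remaining 2 probe sets passed the threshold in limma for vehicle tumours of 48 h against 4 h. They were not the only ones to differ between these times. In 1447974_s_at vehicle tumours read 13.6 and 14.4 at 48 h and 36.6 to 47.1 at 4 h (log2 difference -1.375, SE 0.693). In 1416401_at they read 87.7 and 92 at 48 h and 42.6 to 51 at 4 h (0.889, SE 0.532). Over the 20, 12 of these differences were positive. The rule did not compare vehicle times with each other, but the same vehicle arrays entered its vehicle mean. For 1456182_x_at vehicle tumours read 2670, 2376 and 2156 at 4 h, 1930, 2264 and 3002 at 16 h, and 0.3 and 0.5 at 48 h. Sensitive tumours under drug read 2122 to 3693 at 4 h and 16 h and 0.8 and 0.7 at 48 h. Resistant tumours read 5947 and 4127 at the lower dose and 4423, 1094 and 6393 at the higher dose. Only the 4 tumours of 48 h were near 0, and 1 resistant tumour lay below all tumours of 4 h and 16 h. Between vehicle tumours at 48 h (0.4 ± 0.141, SD, n = 2) and 4 h (2401 ± 258, SD, n = 3) the log2 difference was -9.09, and -10.7 or -7.20 with an offset of 1 or 16, since signals this near 0 leave its size to the offset. The low 48 h tumours are what brought this probe set within the rule, so the difference is a description with no test. Set against the vehicle tumours of 4 h and 16 h by themselves, its resistant tumours stood 0.67 higher and not 2.94.

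The opposite shape was that of 1438686_at. Vehicle tumours read 39.8, 48.0 and 53.4 at 4 h, 57.8, 64.9 and 45.3 at 16 h, and 126 and 126 at 48 h, and resistant tumours read 124, 132, 116, 151 and 147. The resistant tumours thus stood at the level of vehicle tumours of 48 h, 0.08 log2 units apart, and above all vehicle tumours of 4 h and 16 h. In vehicle tumours it rose by 1.36 from 4 h (47.1 ± 6.85, SD, n = 3) to 48 h (126 ± 0.424, SD, n = 2; SE 0.217, limma adjusted p = 0.00604, two-sided), in both tumours of 48 h. Only through the vehicle tumours of 4 h and 16 h, 1.32 lower than the resistant tumours, did it meet the vehicle limit. The difference between 48 h and 4 h is therefore tied to the values that chose it, and nothing is read from its p. Without 1 tumour of 48 h, mouse 1 or mouse 3, that adjusted p was 0.075 or 0.086. Sensitive tumours under drug for 48 h read 84.8 and 73.8, below the resistant tumours.

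Thus 1456182_x_at and 1438686_at were the 2 of 20 past the threshold in limma for vehicle tumours of 48 h against 4 h. Of the 32842 tested probe sets 0.746% were. As both met the rule through vehicle arrays of these times, nothing is read from that count. The median change of the 20 was 0.09. The actin ratio also differed between those arrays, as given above, and its part was not tested. Against vehicle tumours of 48 h alone, the median difference of the 20 was 1.39. Of the 20, 16 had a difference of 1 or more from these tumours, 1456182_x_at at 9.74 through 48 h signals near 0. The other 4 were 1438686_at at 0.08, 1422470_at at 0.50, 1418181_at at 0.67 and 1440156_s_at at 0.96. Against vehicle tumours of 4 h and 16 h alone, 18 did, and 1456182_x_at (0.67) and 1447974_s_at (0.90) did not. No vehicle time gave the rule's difference for all 20. The resistant tumours and the vehicle tumours of each time had entered the rule, so these counts are a description with no test.

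**Figure D4:**
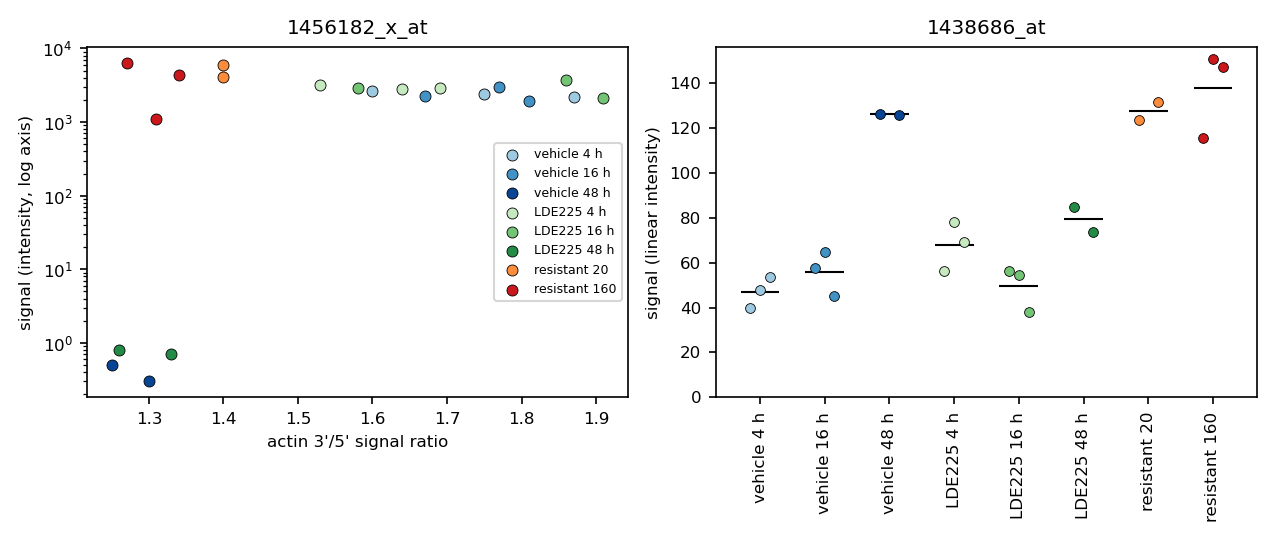
The plot of 1456182_x_at sets its signal in each tumour against that array's actin 3' to 5' ratio, and the plot of 1438686_at shows signal by group. The 4 tumours of 48 h read under 1 in 1456182_x_at, and the 2 vehicle tumours of 48 h read 126 in 1438686_at, among the resistant tumours.

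The 4 h tumours under drug entered neither side of the rule. The resistant mean exceeded theirs by a median of 1.30 log2 units, from 0.36 to 2.61, and by 1 or more in 17 of 20. All 3 of these tumours read below all 5 resistant tumours in 13 of the 20, where 6.91% of tested probe sets did so. The resistant tumours had chosen the probe sets, so this is no independent test.

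Drug against vehicle at 4 h, the earliest time, moved none of the 20 past the threshold in limma. The rule set no limit on this difference, but the 3 vehicle tumours of 4 h were part of its vehicle mean. The comparison is therefore not independent of the choice. Changes ran from -0.98 to 0.56 log2 units with a median of 0.01, against 0.02 over all tested probe sets, of which 0.104% passed. At an unadjusted p under 0.05 there were 2 of the 20, beside 6.36% of all tested probe sets, a share that 2 of 20 does not stand apart from. In 1422470_at vehicle tumours at 4 h read 493.0, 936.6 and 854.1 and drug-treated tumours 363, 300 and 463, without overlap (log2 difference -0.98, SE 0.309, limma adjusted p = 0.528). In 1438686_at the change was 0.49 (SE 0.194, limma adjusted p = 0.707). A p that misses the threshold does not show that the drug left these probe sets alone.

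The rule took the 5 resistant tumours together and did not compare doses, but a probe set high at 1 dose could meet its limits through that dose. The test of the higher against the lower dose passed for 1 of the 20, where 0.773% of all tested probe sets passed (38 higher and 216 lower at the higher dose). That was 1456035_at, which read 8.40 ± 13.3 (SD, n = 3) under the higher dose against 332 ± 394 (SD, n = 2) under the lower. Both tumours at the lower dose were above all 3 at the higher dose, and it reached the signal limit of 100 through the lower dose alone. Its dose difference is therefore tied to the values that chose it and is a description with no test, and nothing is read from the count. That log2 difference was -4.46, -5.46 with an offset of 1 and -3.22 with an offset of 16, and -2.74 without lower-dose mouse 2.

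In 1418181_at, whose mean signal was above 100 at each dose, the values were 265 ± 31.4 (SD, n = 3) against 130 ± 20.2 (SD, n = 2), a difference of 1.01 (SE 0.255, limma adjusted p = 0.0744, two-sided). It lay past the threshold after quantile normalization, at 1.11 with a limma adjusted p of 0.039. Against vehicle it stood 0.588 higher at the lower dose and 1.595 at the higher, so it met the limit of 1 through the higher dose. Its dose difference is therefore also tied to the values that chose it, and nothing is read from these p-values. Over the 20 the dose differences ran from -4.46 to 2.44 with a median of 0.15, against -0.05 over all tested probe sets, and 11 were positive. At an unadjusted p under 0.05 there were 8 of the 20, beside 13.6% of all tested probe sets, and for the reason given nothing is read from it. The 20 dose differences had a median SE of 0.49, estimated from the spread within all 8 groups. Within resistant tumours the 20 had a median SD of 1.04 log2 units, against 0.443 within vehicle tumours. That SE may thus be too small for these dose differences. With 2 and 3 tumours, differences near 0.49 could not be resolved, and larger ones may also be missed. On simulated data 26.5% of changes of 1 log2 unit were recovered for dose.

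Taken dose by dose against vehicle, 10 of the 20 stood 1 or more higher at both doses, 3 only at the lower dose and 7 only at the higher dose. The rule's limit of 1 on the mean of all resistant tumours required this of at least 1 dose, so the split is a description. The dose test moved with single tumours. Without higher-dose mouse 2, 6 probe sets passed the dose test, all lower at the higher dose: 1460102_at (-2.02, limma adjusted p = 0.024), 1427353_at (-1.71, 0.029), 1448516_at (-1.31, 0.011), 1448515_at (-1.12, 0.0093), 1416908_s_at (-0.93, 0.04) and 1456035_at (-5.32). The first 5 are those of the shared profile above. Without higher-dose mouse 1, 5 passed, of which 1416401_at (1.90), 1460000_at (3.76) and 1428964_at (1.92) were higher and 1447974_s_at (-2.05) and 1456035_at (-3.99) lower. The tumours left out had helped to choose the 20, and a probe set could meet the rule through 1 dose. No share over all tested probe sets is given for these fits, so nothing is read from their counts or p-values.

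The rule was then applied with 4 resistant tumours and the probe sets it chose were read in the resistant tumour left out. The vehicle mean serves both the choice and the reading. Beside each is given the share of all probe sets that met the signal and drug limits. Those were not chosen for a low vehicle mean, so their share does not account for this, and the gap is no independent test. Left-out higher-dose mouse 2 read 1 or more above vehicle in 11 of 15 chosen probe sets (73.3%), against 1.8%. Left-out lower-dose mouse 1 and mouse 2 did so in 15 of 27 (55.6%, against 0.606%) and 10 of 31 (32.3%, against 1.19%). Left-out higher-dose mouse 3 and mouse 1 did so in 7 of 26 (26.9%, against 0.974%) and 4 of 36 (11.1%, against 0.576%). The share recovered thus ran widely, and the tumour recovering least was higher-dose mouse 1, whose median height was 0.28. Of the 20 probe sets, 7 were chosen in all 5 repeats, 7 in 4, 5 in 3 and 1, 1418181_at, in 2.

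**Figure D5:**
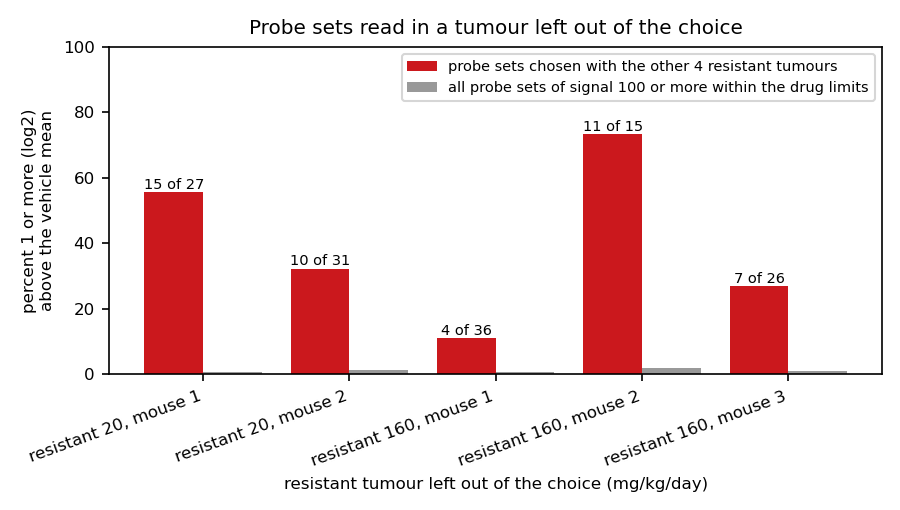
Bars show, for each resistant tumour left out of the choice, the percent of probe sets that read 1 or more log2 units above the vehicle mean in that tumour, for the chosen probe sets and for all that met the signal and drug limits. Chosen sets reach 11.1% to 73.3% and all that met the limits 0.576% to 1.8%. The same vehicle mean served the choice and the reading of the chosen sets.

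The limits of the rule passed through a continuum. Of 14394 probe sets with a resistant mean signal of 100 or more, 276 also lay 1 or more above vehicle, 87 of these 1 or more above drug at 16 h and 48 h, 61 within the drug limit at 16 h and 20 within it at 48 h. Dropping 1 limit at a time gave 96 probe sets without the signal limit, 61 without the drug limit at 48 h, 44 without the vehicle limit, 35 without the limit on drug-treated tumours and 23 without the drug limit at 16 h.
Just inside the signal limit were 1460000_at (104), 1450725_s_at (106) and 1447974_s_at (106), and just outside were 1422146_at (99.1), 1457424_at (97.6) and 1422790_at (96.04). On the difference from vehicle, 1438686_at (1.01), 1422470_at (1.12) and 1440156_s_at (1.12) were inside and 1450723_at (0.96), 1428209_at (0.96) and 1427510_at (0.93) outside. On the difference from drug-treated tumours, 1418181_at (1.05), 1416908_s_at (1.06) and 1416401_at (1.06) were inside and 1452265_at (0.97), 1416907_at (0.94) and 1429060_at (0.92) outside. Values of the neighbours thus differed by little across these 3 limits.

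On the size of the drug difference at 16 h, 1440156_s_at (0.60), 1418743_a_at (0.60) and 1416401_at (0.52) were inside and 1416432_at (0.76), 1449939_s_at (0.76) and 1456010_x_at (1.09) outside. At 48 h, 1438686_at (0.65), 1416401_at (0.47) and 1418743_a_at (0.44) were inside and 1418268_at (0.72), 1452638_s_at (0.77) and 1441978_at (0.82) outside.

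By design class, 13 of the 20 were _at probe sets (65%), 4 were _s_at (20%), 2 were _a_at (10%) and 1 was _x_at (5%). Over all 45037 the shares were 80.1%, 4.64%, 9.83% and 5.42%. The suffix _s_at marks probes that all match more than 1 transcript, and _x_at marks probe sets with some probes that match other sequences, so the signals of 1456182_x_at and of the 4 _s_at probe sets may join transcripts. With 20 probe sets these shares are a description.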

How the data were processed

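The RNA values the authors deposited are intensities on a linear scale, 1 per probe set and array. The submitters' processing notes name MAS5, with its version not given in the sources used here. Every array had the same mean, 150, after trimming 2 percent at each end (149.9 on 1 array). The number of arrays limits the precision. Log2 was taken after adding 4, which understates changes of dim probe sets, and folds are given on this offset scale. Testing required a signal at or above the 40th percentile of the array on 2 arrays or more. With 64 controls left out of 45101, 32842 of 45037 entered, all 20 members among them. A model of 8 groups over 21 arrays (13 residual degrees of freedom) was fitted using limma 3.58.1 (R 4.3.3), a mean-variance trend, two-sided tests, Benjamini-Hochberg adjustment over all tested probe sets and a threshold of 0.05. Each tumour came from its own mouse, and p-values measure the spread between these tumours. Figures were drawn with matplotlib 3.10.9 in Python 3.11.15.

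The rule, the members and the lists were chosen with earlier results of these data known. The rule for named probe sets took separated members, those past a threshold, the neighbours of each limit and the members in which a resistant tumour stood out. As there were 20, the values of all are given. On simulated data with 200 probe sets changed by 1 or 2 log2 units, 26.5% and 75.5% were recovered for dose, 36% and 81.5% for drug at 4 h and 28.5% and 76% for vehicle time. Alternatives were other offsets, quantile normalization, no filter, no trend, array weights, a replicate block, medians, other vehicle times, a stricter limit and leaving out each array. The 6 DNA arrays, the gene lists, cell type markers and promoter motifs planned for member genes were not analysed here, because the tables used here pair no probe set with a gene.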

Additional observations from a re-analysis of the deposited data

Results flagged for a closer look

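In each of the 20 probe sets the resistant, vehicle and sensitive drug-treated tumours were searched for a highest or lowest tumour far from the rest, by the gap to its nearest neighbour as a share of the group's range on the log2 scale. Of 60 groups 4 stood out (6.67%), where chance marks about 1 in 20 independent groups. The 60 share the same 21 arrays over 20 chosen probe sets, so that rate need not hold here. Nothing is read from the share of 6.67%. In 1456182_x_at higher-dose mouse 2 was the lowest resistant tumour, at 1094 beside a nearest value of 4127 (share 0.752). In 1447974_s_at 1 sensitive tumour under drug for 48 h, mouse 2, read 4.6 beside 21.8 (share 0.784). In 1418743_a_at mouse 2 under drug for 16 h read 4.4 beside 21.5 (share 0.58). In 1425822_a_at vehicle mouse 1 of 16 h read 32.9 beside 61.8 (share 0.6). Only the first of these was in the resistant tumours. The high tumours of 1460000_at, 1440156_s_at, 1428964_at and 1456035_at were not marked, and the ranges of their 5 resistant tumours were 4.36 to 7.13 on the log2 scale. No cause was tested.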

How the results depend on the processing

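The number of probe sets meeting the rule was 20, and 17 to 24 with an offset of 1 or 16, quantile normalization, medians, or vehicle tumours of 48 h or (chosen after seeing the data) of 4 h and 16 h alone. The list itself changed too. Of the 20, an offset of 1 kept 17, an offset of 16 kept 15 and quantile normalization kept 16. Vehicle tumours of 48 h alone kept 16, and those of 4 h and 16 h alone kept 18, without 1456182_x_at. The medians kept 11 of the 20, also without 1456182_x_at. A limit of 1.5 on both differences left 7. Leaving out single tumours gave 15 to 36, with 31 without lower-dose mouse 2, 36 without higher-dose mouse 1, 27 without vehicle mouse 3 of 48 h and 15 without higher-dose mouse 2. The dose test called 1 of the 20, 2 after quantile normalization, 0 with the 5 resistant arrays by themselves (3 members at an unadjusted p under 0.05 in limma, beside 6.2% of all tested) and 0 to 6 without single tumours, 0 being without lower-dose mouse 2 (2 at an unadjusted p under 0.05, beside 6.05%). The drug test at 4 h called 0 of 20 in all 13 alternatives run. The vehicle time test called 2, and 1 to 2 without single tumours, 1456182_x_at in each. Leaving out 1 of 2 tumours assumes that the lone tumour varies like the other groups. The dose difference of 1456035_at and the vehicle time differences of 1456182_x_at and 1438686_at kept their sign in the alternatives run for them, and single results of other probe sets were not run through all alternatives. Same-numbered tumours did not deviate together throughout (correlations -0.06 and 0.01 for dose, 0.04 to 0.14 at 4 h, 0.10 and 0.16 for vehicle), so numbers were not taken as pairs. With the replicate block the dose test called 1 (1456035_at, -4.42), the 4 h test 0 and the vehicle test 2 (1456182_x_at, -9.26, and 1438686_at, 1.41). The comparison of DNA and its alternatives were not run, since no table used here pairs probe sets with genes.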
